A study of Mus musculus with 4 samples.

Results

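The mouse major histocompatibility complex (MHC) was examined on a CpG island array in 4 samples of embryonic stem cells. Its members were all probes, other than control spots, whose file positions lay in chr17:33600000-37400000. There were 488 such probes among the 97651 on the array. Probes whose starts were at most 500 bp apart were joined into runs. This gave 84 runs, of which 73 held at least 3 probes and are called regions, out of 14121 regions on the array. The other 11 runs held 16 probes and are given apart. Neither labels nor file headers name the genome build. The interval was drawn to fit build mm8, no annotation of that build was used, and no region was paired with a gene, so the name MHC rests on position alone. Regions are called by the file position of their first base.

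The MHC is a gene-dense stretch of chromosome 17 whose best known products show peptides to T cells. Class I molecules, among them H2-K1, H2-D1 and the H2-Q, H2-T and H2-M families, present peptides made inside the cell. Class II molecules such as H2-Aa and H2-Ab1 present peptides taken up from outside, and the class III block between them holds genes of complement, heat shock proteins and tumour necrosis factor. Pou5f1, which encodes the pluripotency factor Oct4, lies among the class I families. CpG islands are GC-rich stretches, often at the start of genes, that are mostly free of methylation in normal cells.

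Wild type J1 cells, a mouse embryonic stem cell line, gave 1 array. Parp-1 deficient lines derived from J1, clones 210-58 and 226-47, gave 1 array each, and J1 cells given the Parp inhibitor PJ34 gave 1. Parp-1 modifies nuclear proteins, itself among them, with chains of ADP-ribose, mainly at DNA breaks, and PJ34 inhibits Parp enzymes. All 4 samples thus share the J1 background, each knockout line is 1 clone, and the sources used here state neither the dose nor the duration of PJ34. A part of the sonicated DNA was pulled down with an anti-5-methylcytidine antibody (methylated DNA immunoprecipitation, MeDIP) and labelled with Cy5, and whole DNA of the same cells was labelled with Cy3. The level of a region is the mean log2 ratio of Cy5 to Cy3 over its probes, less the median of that array. A typical probe thus lies at 0, and the scale is not a percentage of methylation. Wild type and clone 210-58 lay on slide 1, and clone 226-47 and PJ34 treated cells on slide 2. Expression was not measured, so the cell type was not checked against marker genes.

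Signals in the MHC were as measurable as on the rest of the array. Cy5 was well above background for 92.8% to 98.4% of its 488 probes, against 91.3% to 98.0% of all probes, and Cy3 for 99.0% to 99.6%. No probe of the MHC was saturated or had an outlier flag, and every region had at least some probes with Cy5 well above background on each array. The median raw Cy5 signal was 134.5 to 173.5 over a background of 57 to 58, so the immunoprecipitated channel sets the precision of low levels. Clone 226-47 had the narrowest profile, with an interquartile range over the 73 regions of 0.85, against 1.47 in wild type, 1.31 in clone 210-58 and 1.23 after PJ34.

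The whole DNA channel of the MHC differed little between the cells. On the log2 scale the median of its probes, less wild type, was -0.05 for clone 210-58, 0.01 for clone 226-47 and -0.03 for PJ34. The SD over probes was 0.19, 0.17 and 0.21, and the rest of chromosome 17 lay at -0.02, 0.02 and -0.01. In clone 210-58 62.7% of MHC probes were below wild type in Cy3, against 50.2% of all probes. After PJ34 the shares were 60% and 48.4%, and in clone 226-47 43.4% and 40.8%. The median of clone 210-58 was -0.14 with normexp background correction.

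Most MHC regions lay near the level of a typical probe, and a small set was strongly enriched. In wild type cells the median was -0.09, and 16 of 73 regions (21.9%) were at 1 or more, against 19.8% of all regions on the array. Levels of 2 or more were seen at 9 regions (12.3%, against 9.94% of all), and 11 regions (15.1%, against 12.8%) lay at -1 or below. In clone 210-58, clone 226-47 and PJ34 treated cells 18, 13 and 17 regions were at 1 or more. On all 4 arrays together 12 regions (16.4%) were at 1 or more, against 13.4% of all regions and 16.5% of the other 593 regions of chromosome 17. The share of enriched regions in the MHC thus lay close to that of the chromosome around it. The profiles of the 4 arrays were alike: over the 73 regions, which are not replicates, Pearson's r was 0.900 for wild type with clone 210-58, the lowest pair, and 0.965 for the clones, the highest.

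**Figure D1:**
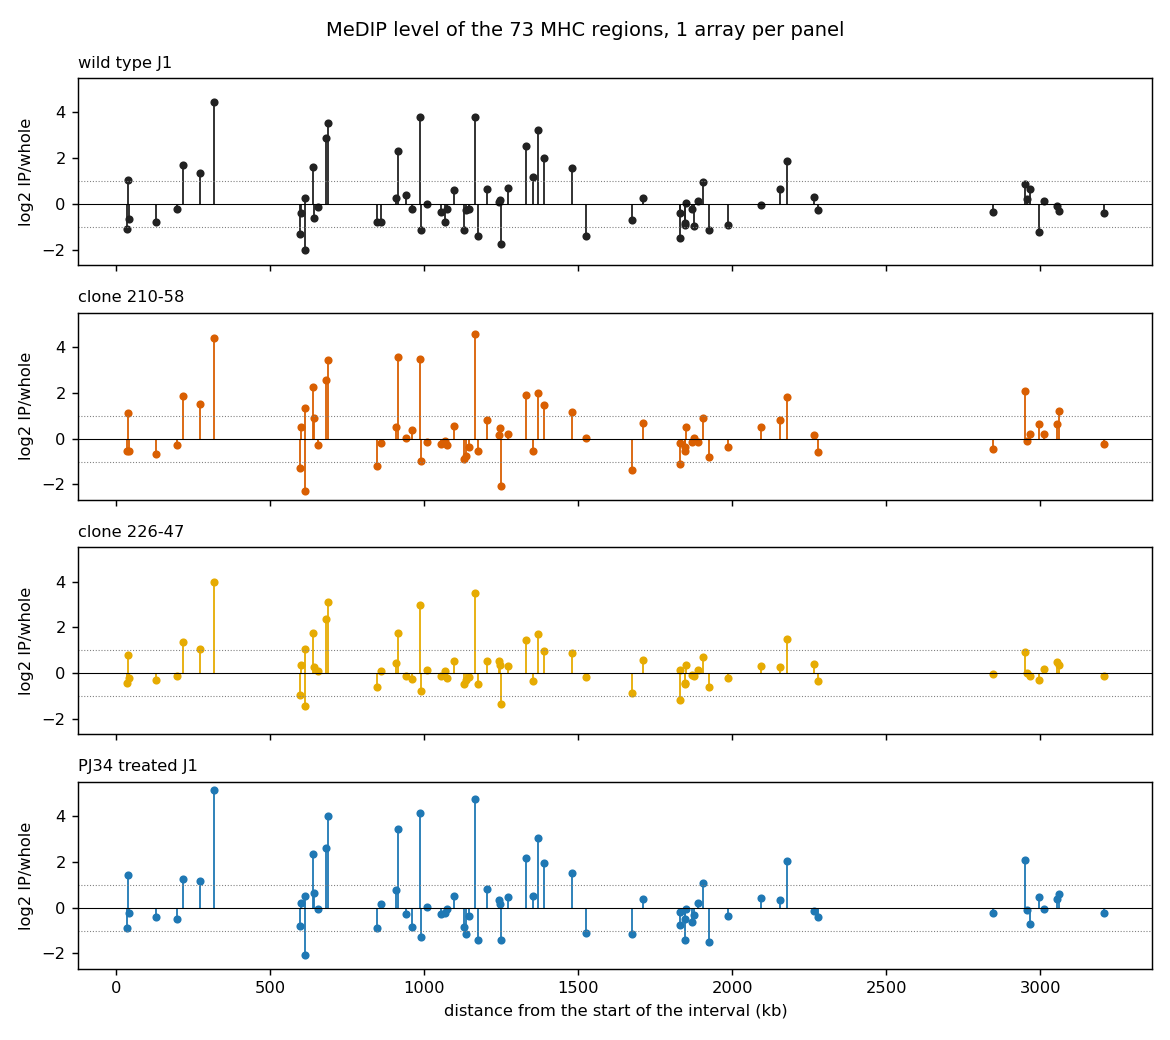
Level of each of the 73 MHC regions (log2 of immunoprecipitated over whole DNA, centred on each array's median) against distance from the start of the interval in kb, with 1 panel per array, and dotted lines at 1 and -1. The 3 regions at 3 or more on all 4 arrays, 33917246, 34287966 and 34764365, stand out as tall lines in every panel.

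The region with the highest mean over the arrays was chr17:33917246-33917755, with 5 probes. Its level was 4.44, 4.39, 3.96 and 5.12 on the wild type, 210-58, 226-47 and PJ34 arrays. Its 5 probes lay between 4.37 and 4.53 in wild type cells, the smallest spread over probes of the 73 regions there. By the mean of the 4 arrays 1.12% of all regions on the array stood above it. The next, chr17:34764365-34764714, had 3.82, 4.58, 3.48 and 4.74 in the same order of arrays, from 4 probes.

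A group of enriched regions lay between 34279921 and 34586698. At chr17:34585523-34586698 the level was 3.80 (wild type), 3.49 (clone 210-58), 2.97 (clone 226-47) and 4.14 (PJ34). At chr17:34287966-34288597 these were 3.56, 3.44, 3.1 and 4.0, and at chr17:34279921-34280891, 7.08 kb before it, 2.89, 2.55, 2.35 and 2.59. The first pair lay above wild type after PJ34 and region 34279921 below it, and both clones were below wild type at all 3. The region chr17:34513428-34513683, with 3 probes, differed most between the arrays of this group, with 2.33, 3.54, 1.73 and 3.42 on the wild type, 210-58, 226-47 and PJ34 arrays. The last of the 8 highest regions, 34928674 and 34967095, lay together further on and were both lower in the clones.

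High and low regions stood side by side. Region 34589685, with 9 probes and levels of -1.15, -0.97, -0.76 and -1.30 in wild type, clone 210-58, clone 226-47 and PJ34 treated cells, began 2.99 kb after the end of region 34585523. Likewise region 34772457, at -1.41 in wild type, began 7.74 kb after the end of region 34764365, at 3.82. Among 36 pairs of neighbouring MHC regions at most 20 kb apart, the median difference in level was 0.94 in wild type, and it was 0.96 over the 3857 such pairs of the whole array.

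The lowest regions were chr17:34212006-34212559 (5 probes) and chr17:34849358-34850633 (10 probes). The former had -2.01 (wild type), -2.30 (clone 210-58), -1.44 (clone 226-47) and -2.07 (PJ34), and 99.5% of all regions on the array had a higher mean. The latter had -1.76, -2.06, -1.36 and -1.39. These were the 2 regions at -1 or below on all 4 arrays. The sizes of such low levels are uncertain, since in wild type Cy5 was well above background for 3 of 5 and 6 of 10 of their probes. The other 6 of the 8 lowest, regions 34194859, 34589685, 34772457, 35275357, 35429860 and 35524113, lay between -1.49 and -0.69 in wild type. Region 35429860 was at -1.49 in wild type, -1.13 and -1.17 in the clones and -0.78 after PJ34, so wild type was the lowest array there.

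The 3 regions with the most probes were low or near 0, but not uniform. The longest, chr17:33728773-33733148, had 34 probes and a mean of -0.76, -0.66, -0.31 and -0.40 on the wild type, 210-58, 226-47 and PJ34 arrays. Its single probes ran from -4.09 to 2.33 in wild type, an SD of 1.51. Region 35586992 (16 probes) had -0.90, -0.38, -0.22 and -0.36, and region 34444270 (15 probes) -0.77, -1.20, -0.58 and -0.91. Within these long islands the spread over probes exceeded any difference between the arrays.

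The 11 short runs, of 1 or 2 probes each, lay between -0.48 and 3.28 in wild type, a narrower span than that of the regions. The highest was a single probe at chr17:35003064-35003108, with 3.28 (wild type), 3.33 (clone 210-58), 2.74 (clone 226-47) and 3.40 (PJ34). Runs at 35769879 and 35813861 were at 2.34 and 2.38 in wild type, and the lowest of the short runs was that at 35518118. A single probe at 35718814 was at 0.71, -0.36, -0.34 and -0.07 on the wild type, 210-58, 226-47 and PJ34 arrays. These runs were too short for the test and have no error of their own.

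The comparison of Parp-1 deficient with wild type cells asks which islands gained or lost methylation without the enzyme. In the MHC 6 of 73 regions (8.22%) differed between the 2 clones and wild type by limma, with Benjamini-Hochberg adjustment over all 14121 regions, where 2.78% of all regions passed. In the clones 4 were higher (5.48%, against 1.19% of all regions) and 2 were lower (2.74%, against 1.57%), and both clones moved the same way in each. Without the variance trend 4 regions were called, against 1.29% of all. Taken singly against wild type, by a size of 1 and with no test, clone 210-58 was higher at 7 regions (3.31% of all) and lower at 2 (3%), and clone 226-47 higher at 1 (0.963%) and lower at 4 (2.96%). Over the 73 regions the median difference was 0.14, against 0.01 over all regions. The mean of the clones was higher at 43 (58.9%, against 51.4% of all regions and 55% of the rest of chromosome 17). PJ34 treated cells were above wild type at 43 of the 73 too. The balance depended on the scaling. With every array scaled to the same median absolute deviation 8 regions were called higher and 1 lower. These counts were 6 and 1 with normexp background correction, and 0 and 1 after quantile normalization. The share called over all regions changed too, to 5.53%, 3.02% and 0.191% in these settings. After intensity loess 0 of 73 were called, and 0 of the 14121 regions of the whole array. The spread came from the 2 clones with 1 residual degree of freedom, and each SE follows the general trend with level, so the values of each clone are given. The test takes the single wild type array to vary like the clones, and whether these samples came from separate cultures is not stated. Its p-values thus rest on the spread between the 2 clones pooled over regions of like level, not on that of each region. Regions whose clones lay far apart could pass, as region 36596622 did with an SD between the clones of 0.65 and an SE of 0.31.

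The clearest difference was a fall at chr17:34950837-34951359 (4 probes). Its level was 1.18 for wild type, -0.54 for clone 210-58 and -0.35 for clone 226-47, with PJ34 treated cells between them at 0.49. The clones were lower by -1.62 (SE 0.29, limma adjusted p = 1.34e-05), and all 4 probes were below wild type in each clone and after PJ34. Single probes of wild type ran from 0.59 to 1.83, and those of the clones from -0.85 to 0.18, so the probes did not overlap. Cy5 was well above background at all 4 probes on each array. The Cy3 signal differed from wild type by 0.01 and -0.02 in the clones, so the fall lay in the immunoprecipitated channel, at -1.69 and -1.57. The size was -0.91 with normexp background correction and -0.95 after intensity loess, where the call was lost (limma adjusted p = 0.317; 9.65e-08 to 0.317 over its alternatives).

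The next region, chr17:34967095-34967821 (6 probes), began 15.7 kb further on. It was strongly enriched in wild type, at 3.25, and after PJ34, at 3.06, and was at 1.97 in clone 210-58 and 1.71 in clone 226-47. The difference between the clones and wild type was -1.41 (SE 0.42, limma adjusted p = 0.0369), and all 6 probes were below wild type in both clones. It thus kept part of its enrichment, where region 34950837 lay below the level of a typical probe. The call was lost with each array scaled to one median absolute deviation, with normexp background correction, with medians over probes and after quantile normalization, where the adjusted p was 0.0648 to 0.0884, and after intensity loess. Over its 10 alternatives the adjusted p ran from 0.00259 to 0.317.

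Regions on both sides of this pair were also lower in the clones, though none of these passed the test. Region 34928674 had 2.54 in wild type, 1.90 and 1.45 in the clones and 2.16 after PJ34 (adjusted p = 0.297 from limma). Region 34987561 had 2.02, 1.45, 0.95 and 1.93 (adjusted p = 0.254), and region 35078015 had 1.59, 1.15, 0.89 and 1.51. With region 34871057, at 0.71, 0.20, 0.31 and 0.47, they made a run of 6 neighbouring regions over 207 kb that were below wild type in both clones. PJ34 treated cells were below wild type at all 6 too, by -0.68 to -0.08. The single probe at 35003064, inside this stretch, had 3.28 in wild type and 3.33 in clone 210-58. Across the array enriched regions tended to be lower than wild type in the mean of the clones. The median difference was -0.31 over the 1181 regions with a mean of 2 or more, of which 291 were higher. It was -0.16 over those between 1 and 2. This tendency lay mostly in clone 226-47, at -0.53 and -0.34 in these classes, against -0.08 and -0.02 in clone 210-58. The stretch was picked out after its values were seen, and region 34928674 and its neighbours were not tested as a group.

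The region after this stretch went the other way. At chr17:35124726-35125430 (7 probes) the level was -1.39 in wild type and -1.11 after PJ34, against 0.05 in clone 210-58 and -0.18 in clone 226-47. The clones were higher by 1.32 (SE 0.34, limma adjusted p = 0.00847), and each of the 7 probes was above wild type in both clones. The size of this rise is uncertain. Cy5 was well above background for 5 of 7 probes in wild type and after PJ34 but for all 7 in the clones, and the lowest probe was at -4.87 in wild type. With probes well above background on all arrays alone the difference was 0.96, and with medians over probes 0.86, which did not pass (adjusted p = 0.174 from limma; 2.11e-04 to 0.317 over its alternatives). It was smallest with normexp background correction, at 0.64, and did not pass after quantile normalization (limma adjusted p = 0.0701) or intensity loess. At the far end of the region, where Cy5 was measurable on every array, the last probe had -0.08 (wild type), 2.10 (clone 210-58), 0.95 (clone 226-47) and -0.26 (PJ34). That probe was the region's highest in clone 210-58. With probes well above background on all arrays clones 210-58 and 226-47 were higher than wild type by 1.19 and 0.73.

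The other 3 called rises differed in that PJ34 treated cells lay with the clones and wild type stood alone. At chr17:36596622-36597072 (4 probes) wild type had -1.22, clone 210-58 0.63, clone 226-47 -0.30 and PJ34 treated cells 0.46. The clones were higher by 1.38 (SE 0.31, limma adjusted p = 0.00112), with an SD between them of 0.65. At chr17:34240020-34240515 (5 probes) the levels were -0.63, 0.92, 0.26 and 0.64, a difference of 1.22 (SE 0.29, limma adjusted p = 0.00288; SD between the clones 0.47). At chr17:36658723-36659304 (5 probes) they were -0.30, 1.21, 0.37 and 0.60, a difference of 1.09 (SE 0.30, limma adjusted p = 0.0143; SD 0.60). In each of these clone 210-58 was above clone 226-47, and wild type was below all 3 other arrays. Whether wild type read low by itself or the other 3 samples share a gain cannot be told apart there. Without the trend of the variance with level, regions 34240020 and 36658723 were not called (adjusted p = 0.0900 and 0.174; 2.23e-04 to 0.317 and 0.00161 to 0.334 over their alternatives). Region 34240020 also lost its call when runs were joined across up to 1000 bp, which added its neighbour 34238727 (0.81, limma adjusted p = 0.182). Region 36658723 lost it with medians over probes (1.02, limma adjusted p = 0.118). Region 36596622 lost it after quantile normalization (limma adjusted p = 0.108; 8.88e-05 to 0.334 over its alternatives), and was at 0.78 both with normexp background correction and after intensity loess. After intensity loess regions 34240020 and 36658723 were at 0.77 and 0.68, and neither they nor region 36596622 passed there, nor did the former pair after quantile normalization.

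**Figure D2:**
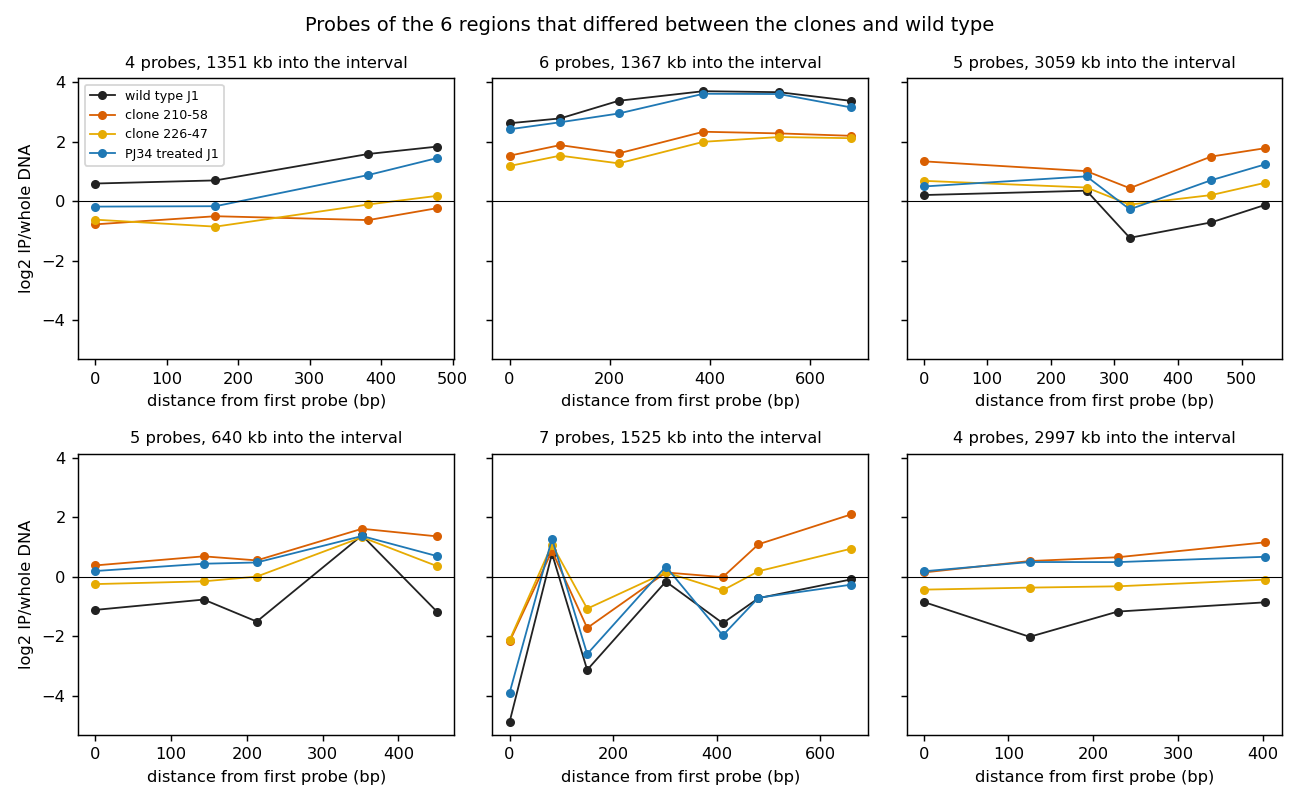
Level of each probe (log2 of immunoprecipitated over whole DNA) against its distance in bp from the first probe, for the 6 regions called between the clones and wild type, with 1 line per array. In the first pair, the falls, the lines of both clones run below those of wild type and PJ34 at every probe, and in the region of 7 probes wild type and PJ34 run together while the clones lie above them at most probes.

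Among the rises that limma did not call, 3 had the smallest adjusted p-values. Region 34213565 (3 probes) had 0.25 in wild type, 1.34 and 1.03 in the clones and 0.52 after PJ34, a difference of 0.94 (adjusted p = 0.0805). Regions 34200448 and 35473735 differed by 0.83 and 0.88 (adjusted p = 0.101 and 0.118). Without the variance trend the limma adjusted p-values of these 3 regions were 0.330, 0.456 and 0.393. The last of the 5 largest falls, region 36566505, had 0.66 in wild type, 0.21 and -0.12 in the clones and -0.74 after PJ34, so PJ34 lay further from wild type than the clones.

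**Figure D3:**
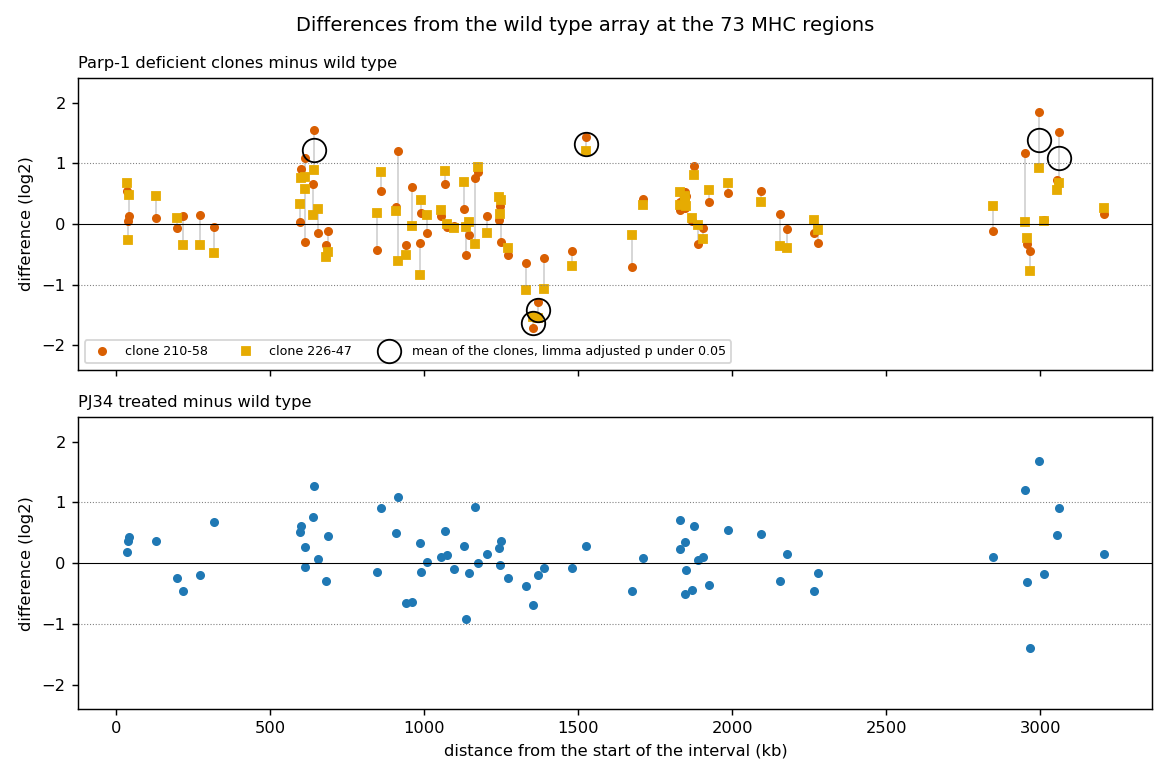
Difference from the wild type array (log2) at the 73 MHC regions against distance from the start of the interval in kb, for clones 210-58 and 226-47 (upper panel) and PJ34 treated cells (lower panel), with open circles at the mean of the clones for the 6 regions called by limma. The upper panel shows the run of falls between 1271 and 1478 kb, with the called region 34950837 lowest at -1.62, next to the rise of 1.32 at 1525 kb.

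The comparison with the inhibitor asks which islands differ when Parp activity is blocked in J1 cells. It has 1 array on each side and so no test, and it shares the wild type array with the comparison of the clones. At least 1 on the log2 scale separated 5 of 73 regions. After PJ34 4 were higher (5.48%, against 2.44% of all regions) and 1 was lower (1.37%, against 1.25%). The median difference over the 73 was 0.10, against -0.01 over all regions. The largest difference was a rise of 1.68 at region 36596622, followed by 1.27 at region 34240020, both described with the clones. Region 36550869 (6 probes) had 0.89, 2.06, 0.93 and 2.10 on the wild type, 210-58, 226-47 and PJ34 arrays, a difference of 1.21. Region 34513428 was higher by 1.08 and region 34764365 by 0.92.

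The fall past 1 was at region 36566505, where PJ34 treated cells were lower by -1.39, at -0.74 against 0.66. The next falls were -0.91 at region 34734331, -0.68 at region 34950837, -0.65 at region 34539249 and -0.64 at region 34559982. In region 34734331 Cy5 was well above background for 2 of 3 probes after PJ34, so its level of -1.16 there is uncertain. Region 34559982 had -0.22 (wild type), 0.39 (clone 210-58), -0.26 (clone 226-47) and -0.86 (PJ34). These counts moved with the processing: medians over probes in place of means gave 10 regions past 1, normexp background correction 1 and intensity loess 0.

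Set directly against PJ34 treated cells, the clones differed at 0 of 73 MHC regions by limma with Benjamini-Hochberg adjustment, where 1.35% of all regions passed. Without the variance trend the count was also 0 (0.673% of all regions), and at an unadjusted p under 0.05 it was 9 (12.3%, against 8.30% of all regions). The smallest adjusted p-values, 0.0595 and 0.0711, were those of region 35124726 (clones higher by 1.04, SE 0.31) and region 34950837 (clones lower by -0.94, SE 0.29). Region 34559982 followed with a difference of 0.93 (SE 0.29, adjusted p = 0.0884), and region 34967095 differed by -1.22 (SE 0.44, adjusted p = 0.178). Other settings called some of these: scaling to one median absolute deviation called regions 34950837 and 35124726, and centring on the rest of chromosome 17 called region 34967095.

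Each slide held 1 Parp-1 deficient clone and 1 sample with an intact Parp-1 gene by its label, so the clones could be read within slides with no array used on both. On slide 1 clone 210-58 was set against wild type, and on slide 2 clone 226-47 against PJ34 treated cells. The called regions had been picked with the wild type array and both clones. Clone 226-47 thus entered both the call and the slide 2 difference, which may lean to the side of the call. A shared sign at called regions is therefore not an independent check of the calls. Region 34950837 was lower in the clone on both slides, by -1.71 and -0.85, and so was region 34967095, by -1.28 and -1.35. Region 35124726 was higher on both, by 1.44 and 0.93. The other 3 called rises were higher on slide 1 alone: regions 36596622, 34240020 and 36658723 had 1.84, 1.55 and 1.51 there, and -0.76, -0.38 and -0.23 on slide 2. Over the 73 regions the 2 within-slide differences had the same sign at 41 (56.2%, against 50.7% of all regions). Blocking on slide uses up the degrees of freedom, so no test within slides could be made, and wild type and PJ34 treated cells are not replicates of each other.

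**Figure D4:**
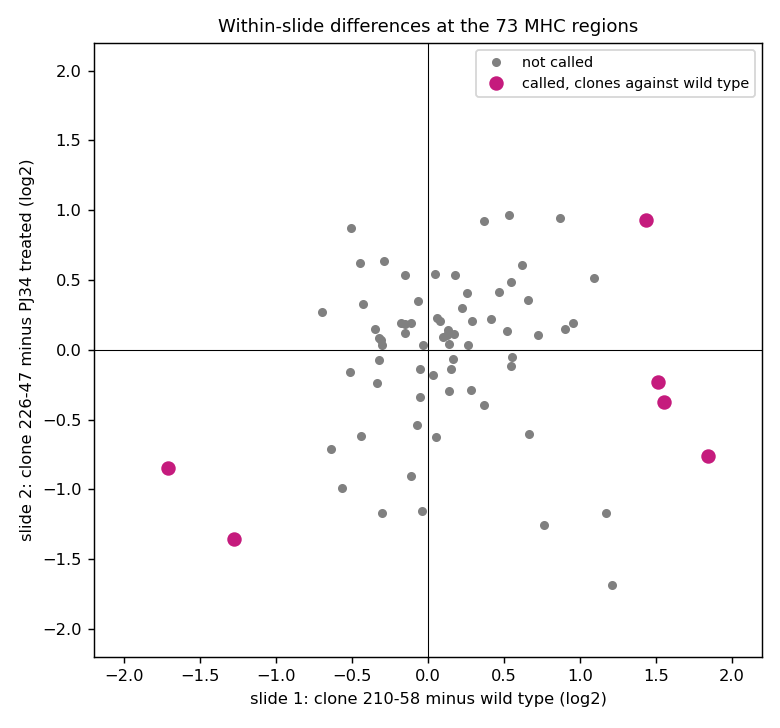
Difference between clone 226-47 and PJ34 treated cells on slide 2 against that between clone 210-58 and wild type on slide 1 (both log2), 1 point per MHC region, with the 6 regions called by limma in colour. The falls at 34950837 and 34967095 lie at the lower left and the rise at 35124726 at the upper right, while the other 3 called rises lie right of 0 but below the horizontal line.

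The clones differed from each other by at least 1 at 3 of 73 regions, all higher in clone 210-58 (4.11%, against 1.41% of all regions). Region 34513428 differed by 1.81, region 36550869 by 1.13 and region 34764365 by 1.10. The last was 0.34 after intensity loess and turned to -0.12 with each array scaled to one median absolute deviation. The count was 1 in these settings, after quantile normalization and with at least 5 probes per region. Clone 210-58 differed from PJ34 treated cells by 0.13, -0.04 and -0.16 at these. Clone 226-47 was below wild type at regions 34513428 and 34764365, and at region 36550869 it had 0.93 against 0.89. No MHC region was lower in clone 210-58 by 1 or more (0.977% of all regions). The largest differences in that direction, at regions 34212006 (-0.86), 34849358 (-0.70), 34444270 (-0.61), 35275357 (-0.52) and 34734331 (-0.46), were at regions below 0 in wild type. Their direction is not settled: with normexp background correction regions 34212006, 34849358, 34444270 and 35275357 turned to 0.20, 0.21, 0.18 and 0.11, and after quantile normalization region 34849358 turned to 0.011. Beside these stands the narrower profile of clone 226-47. Among MHC regions with a mean of 2 or more its median difference from wild type was -0.54, and among those below -1 it was 0.39, against -0.12 and 0.03 in clone 210-58. Over all regions on the array clone 226-47 had -0.53 and 0.43 in these classes, and clone 210-58 -0.08 and -0.16.

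The gap between the highest and lowest of the 4 arrays had a median of 0.63 over the MHC regions, against 0.59 over all regions. It was under 0.5 at 22 of 73 regions (30.1%, against 38.1% of all) and 1 or more at 17 (23.3%, against 14.7%). It was largest at region 36596622, at 1.84, where wild type was the lowest array. By windows of 500 kb, the median difference between the clones and wild type was highest between 3000 and 3500 kb from the start of the interval, at 0.43, where 4 of 4 regions were higher in both clones. It was 0.37 between 1500 and 2000 kb, where 11 of 14 regions were higher in both clones and the median level in wild type was -0.76. Between 1000 and 1500 kb, which holds the run of falls, it was -0.02, and 9 of 20 regions were lower in both clones.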

How the data were processed

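The deposited scanner files hold spot intensity, background-subtracted and dye-normalized by Agilent's Feature Extraction, version 10.7.3.1 per the file headers (the submitters' processing notes name version 9.1). The deposited value table holds the ratio of these signals, as checked against the scanner files, and served as an alternative. Other deposited columns used were raw median intensities and flags.

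Processed Cy5 over Cy3 from the deposited files was put on the log2 scale and each array's median was subtracted, leaving out 5950 control spots, with no loess or quantile step. Across the array, 442 probes without a position and 30 with an outlier flag were left out. None of the flagged probes lay in the MHC interval, and those without a position could not be placed. Regions were means over runs of at least 3 probes with starts at most 500 bp apart. All regions were fitted with limma 3.58.1 in R 4.3.3 (lmFit, eBayes with a mean-variance trend, whose prior took full weight). The p-values were adjusted over all regions with a threshold of 0.05. Simulated data, in which wild type varied like the clones and no slide effect was put in, tested the fit alone. They cannot check the calls. Single arrays were compared by a size of 1 on the log2 scale. Precision is limited by there being 4 arrays.

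Named regions were the 8 highest and 8 lowest by mean, all called ones, the 5 largest differences each way per comparison and the 3 with the most probes. Others, named after their values were seen, are neighbours of the falls, rises that came next after the called ones, and short runs. The members and lists were chosen with earlier results of these data known. Genes listed for the interval were not placed, since no annotation of the build was used.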

Additional observations from a re-analysis of the deposited data

How the results depend on the processing

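The deposited value table gave the same levels as the scanner files. Of 187 recomputed levels of named regions, 142 moved by less than the SD between the clones, 45 moved by more and 0 changed sign. Most of these regions were picked as the highest or lowest, so a change of sign was unlikely from the start. The deposited table, and settings that left a run of probes as it was, return the same level by construction. The highest region, 33917246, went from 4.48 to 2.76 with intensity loess and 3.59 with normexp. The count of regions at 1 or more on all 4 arrays, 12, was 7 with intensity loess and 7 with normexp. The 6 calls between the clones and wild type became 1 after quantile normalization, 0 after intensity loess and 3 with medians over probes. They were 4 to 9 in the other alternatives run. Over all regions the shares called were 0.191%, 0% and 2.14% in the settings named, and 1.29% to 5.53% in the others. The main setting had 2.78%. All 6 called differences kept their direction in every alternative that measured them. They had been picked as called on these same arrays, so this was likely from the start and is no check of them. Counts were taken anew over the MHC regions in each setting and do not follow the same regions. The count of regions that differed by 1 under PJ34, 5 in the main setting, was 0 with intensity loess, 3 after scaling by the median absolute deviation and 1 with normexp. It was 10 with medians, 2 with at least 5 probes per region (fewer regions tested) and 22 at a size of 0.5. For the clones against PJ34 treated cells, 0 became 2 after scaling, 1 with centring on the rest of chromosome 17, 1 with medians and 2 with probes well above background alone. By size, the mean of the clones differed from wild type by 1 at 6 regions and from PJ34 at 3, and single clones at 5 to 6 from PJ34 and 5 to 9 from wild type, with no test left. The count of regions differing between the clones, 3 in the main setting, became 1 after quantile normalization, intensity loess, scaling or with 5 probes, and 15 at a size of 0.5. The difference between clone 210-58 and clone 226-47 changed sign with normexp at regions 34212006 (0.20), 34444270 (0.18), 34849358 (0.21) and 35275357 (0.11), after quantile normalization at 34849358 (0.011), and after scaling at 34764365 (-0.12). Median Cy3 of clone 210-58 was -0.14 with normexp. Apart from the construction named, the cause of these changes was not tested. Weak Cy5 signal limits levels below -1. No paired analysis was possible because wild type and PJ34 treated cells had 1 array each, and a test blocked on slide has no residual degree of freedom.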
